A study of Mus musculus with 9 samples.

Results

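The genes described here are 9 markers of microglia and macrophages, 9 of the 15228 genes listed in the deposited expression table. They were chosen by name, with earlier results of these data known. Cx3cr1, P2ry12, Tmem119, Gpr34 and Sall1 mark microglia in their homeostatic state, and Aif1, Mpeg1, Cd68 and Adgre1 are general myeloid markers that microglia share with other macrophages. All 9 are listed in the table. The libraries came from cells sorted as retinal ganglion cells (RGCs), the neurons whose axons form the optic nerve. Ctrl cells came from normal retinas, ONC cells from retinas after optic nerve crush with PBS, and TPEN cells from retinas after optic nerve crush with TPEN, a membrane-permeable chelator of zinc. Injured retinas were collected 3 d after ONC. The mice of all 3 groups were wild type (C57BL/6J), were young adults and carried no transgene. Each group had 3 libraries. The sources used here do not say whether these came from separate mice, so p-values measure only the spread between libraries, which may be technical.

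Microglia are the resident macrophages of the retina and brain. In healthy tissue they express a set of receptors and a transcription factor with which they survey neurons and hold their identity. After nerve injury they become reactive, take up debris and raise lysosomal and phagocytic genes, while parts of the homeostatic set are known to fall in reactive cells. Macrophages that enter from the blood or sit at tissue borders carry the general myeloid markers but little of several, not all, homeostatic genes. The classes are therefore set side by side here.

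The libraries held 20077226 to 23109754 reads in Ctrl, 22967138 to 22986065 in ONC and 19946993 to 22217283 in TPEN. Levels are read numbers scaled to the exon length of the gene and to the size of the library (RPKM). The members had 2 to 78 reads per library in Ctrl, 39 to 485 in ONC and 14 to 282 in TPEN, and no member was without reads in any library. A count of 0 would allow up to 3 reads, and this limit covers counting error only. Of the 81 read numbers of the members, 61 were even (75.3%, against 53.0% over all genes and libraries), and whether both reads of a fragment were counted is not given in the sources used here. By mean RPKM over the 9 libraries the members ranked from 9394 (Cx3cr1) to 14281 (Sall1) of 15228 listed genes, so all of them lay below the median gene (4.10 RPKM). The sort took cells positive for Thy1 and negative for CD48, CD15 and CD57. Of 10 listed RGC genes, the neurofilament gene Nefl was at 258 ± 3.13 RPKM in Ctrl (SD, n = 3). Thy1, the positive surface marker of the sort, was at 4.74 ± 0.208 RPKM. The RGC-specific Rbpms and Pou4f1 were at 0.605 ± 0.0992 and 0.571 ± 0.146 RPKM. The summed level of these 10 genes, most of it Nefl, was 364 to 374 RPKM in Ctrl, 373 to 395 in ONC and 290 to 304 in TPEN. The summed level of 8 rod genes was 19061 to 19877 RPKM in Ctrl, 16764 to 16982 in ONC and 17980 to 18086 in TPEN. With the filter on low levels described below, no gene of either list was called in any comparison, and without it Pou4f1 was lower in ONC/Ctrl and Rbpms in TPEN/Ctrl. The part of these shifts in the results was not tested. In bulk libraries such as these, fewer cells of a type and less RNA per cell cannot be told apart.

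Promoters of 6 of the 9 members were in the RefSeq table (GRCm38.p6), as windows of 250 bases before to 50 bases after a RefSeq start site. That site lay near the start of the annotated gene for P2ry12, Cd68, Aif1 and Mpeg1 and 1583 bases inside the annotated span for Cx3cr1, and Sall1 had 3 windows. They were searched on both strands for GAGGAA, the core of the site of PU.1, an ETS factor that macrophages depend on, and for the ETS-IRF composite element, at which an ETS factor binds beside an interferon regulatory factor. These searches can overlap. GAGGAA was in 28.3% and the composite in 2.72% of all 32851 promoters in the table. Cd68 held 2 matches to GAGGAA and 1 to the composite, and Aif1 held 1 match to GAGGAA. No match was found in the windows of Cx3cr1, P2ry12, Mpeg1 and Sall1. The windows of Cd68 and Aif1 are shown because they are the members with matches, and that of Cx3cr1 because it is the most abundant homeostatic member. Capitals mark the matches on either strand, and in Cd68 the longer run is the composite overlapping a GAGGAA core on the opposite strand. A match is only a description of these letters.

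Cd68, chr11:69666121-69666420, minus strand: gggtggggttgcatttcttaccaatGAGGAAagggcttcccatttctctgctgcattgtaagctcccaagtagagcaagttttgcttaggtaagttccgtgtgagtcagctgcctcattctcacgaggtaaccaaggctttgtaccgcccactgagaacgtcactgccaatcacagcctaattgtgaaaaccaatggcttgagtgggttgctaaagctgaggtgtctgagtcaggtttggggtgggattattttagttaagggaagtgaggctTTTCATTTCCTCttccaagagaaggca
Aif1, chr17:35176003-35176302, minus strand: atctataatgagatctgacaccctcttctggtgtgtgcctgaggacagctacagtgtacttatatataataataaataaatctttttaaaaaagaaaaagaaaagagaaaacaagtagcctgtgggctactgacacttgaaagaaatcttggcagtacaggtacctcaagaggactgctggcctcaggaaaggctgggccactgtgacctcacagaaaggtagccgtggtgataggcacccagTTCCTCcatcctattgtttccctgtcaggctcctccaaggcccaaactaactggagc
Cx3cr1, chr9:120068247-120068546, minus strand: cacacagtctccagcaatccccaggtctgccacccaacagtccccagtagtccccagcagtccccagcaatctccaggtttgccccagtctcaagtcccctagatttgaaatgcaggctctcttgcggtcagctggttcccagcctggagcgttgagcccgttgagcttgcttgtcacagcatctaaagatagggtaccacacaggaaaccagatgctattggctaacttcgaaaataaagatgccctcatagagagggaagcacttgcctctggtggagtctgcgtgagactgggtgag

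All 9 markers were higher in every ONC library than in every Ctrl library, as were 21.3% of all genes. All 9 were still higher in every TPEN library than in every Ctrl library, as were 19% of all genes. The markers differed in TPEN/ONC. The 4 general myeloid genes fell, to between 0.343 and 0.415 of their ONC mean. Of the homeostatic genes only Tmem119 passed the test, at 0.472 of its ONC mean. Cx3cr1 and P2ry12 did not pass it, but were lower in every TPEN library than in every ONC library, as were 15.6% of all genes. Cx3cr1 and P2ry12 were at 0.715 and 0.586 of their ONC mean. Gpr34 and Sall1 did not pass it either, and their ONC and TPEN libraries overlapped. These counts take Sall1 and Adgre1 from a fit with no filter on low levels. Differences were tested with limma on log2(RPKM + 0.1), and the added 0.1 RPKM pulls the fold changes of low genes toward 0. A gene was called where its fold change was at least 1.5 and its p, adjusted over all genes tested by the Benjamini-Hochberg method, was under 0.05.

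**Figure D1:**
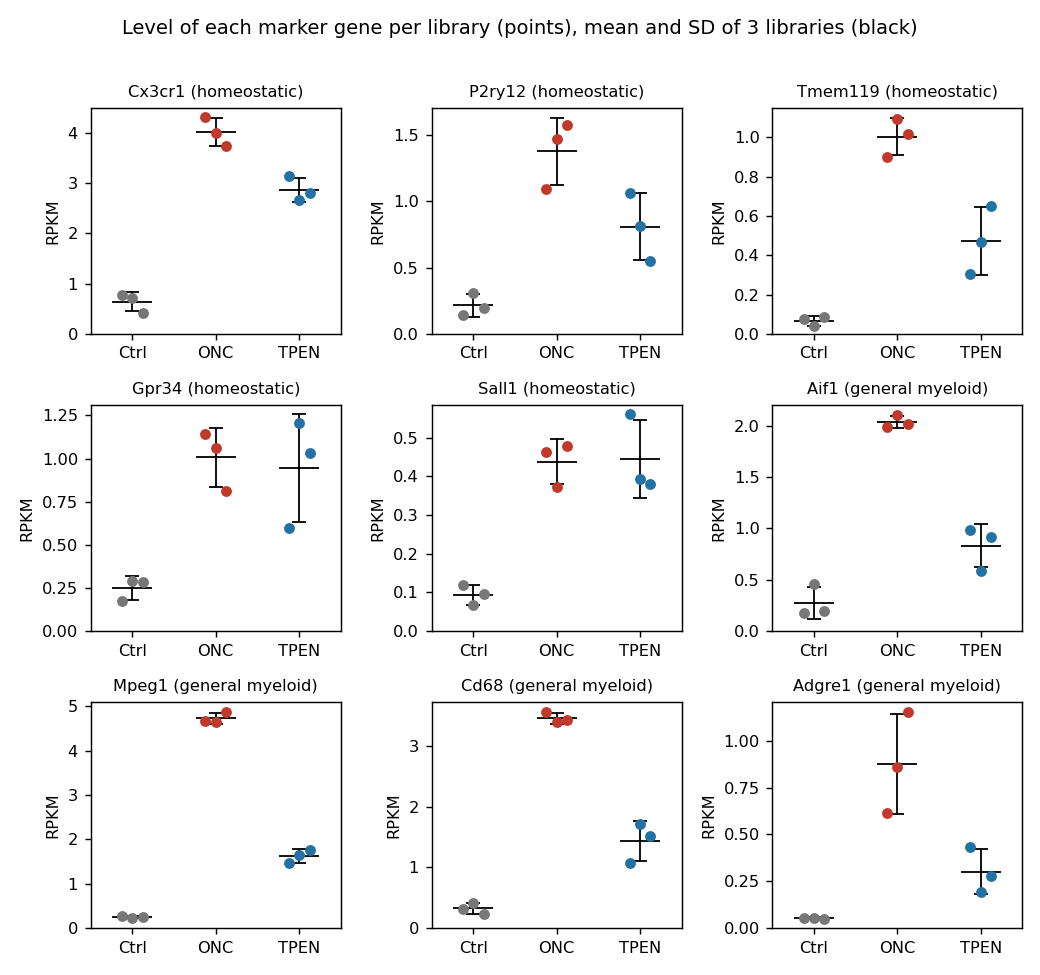
Level of each of the 9 marker genes in RPKM (vertical axis, from 0, own scale per gene) in the Ctrl, ONC and TPEN groups. Points are single libraries, and black marks are the mean and SD of 3 libraries. The Mpeg1 points are at 4.65 to 4.87 in ONC and at 1.45 to 1.77 in TPEN, while the Sall1 points of these groups overlap.

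A filter at a mean of 0.5 RPKM over the 9 libraries left 13566 genes, among them 7 of the 9 members. Sall1 (0.325 RPKM) and Adgre1 (0.410 RPKM) did not pass it. Of the 7, only Cx3cr1 had a Ctrl mean of at least 0.5 RPKM, so the others passed through the groups in which they were high. The count of all 9 members therefore rests on the fit without the filter. In that fit 9 of 9 members were upregulated in ONC/Ctrl, where 6.19% of the 15228 genes were, 5 of 9 were downregulated in TPEN/ONC, where 1.85% were, and 9 of 9 were upregulated in TPEN/Ctrl, where 4.5% were. With the filter, 7 of 7 members were upregulated in ONC/Ctrl (4.58% of the genes tested), 4 of 7 were downregulated in TPEN/ONC (1.21%) and 7 of 7 were upregulated in TPEN/Ctrl (3.45%). The median log2 fold change of the 9 members without the filter was 2.59 in ONC/Ctrl and -0.99 in TPEN/ONC, against 0.020 and -0.011 over all genes. Every ONC library was above every Ctrl library for 9 of 9 members and for 21.3% of all genes. Every TPEN library was below every ONC library for 7 of 9 members, all but Gpr34 and Sall1, and for 15.6% of all genes. Every TPEN library was above every Ctrl library for 9 of 9 members and for 19% of all genes. ONC/Ctrl and TPEN/ONC share the ONC libraries, so their values are given side by side and not as independent evidence. The listing of genes may itself favor those with reads in ONC. Of all listed genes, 0, 0 and 1 were without reads in the ONC libraries. In Ctrl 51, 44 and 58 were without reads, and in TPEN 11, 10 and 8. How far the counts above depend on the listing was not tested.

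Among the homeostatic genes, Cx3cr1 is the receptor of fractalkine, a ligand that neurons present to microglia. It lies on chromosome 9 (119901616 to 120069879, GRCm38, minus strand). Its level was 0.772, 0.711 and 0.420 RPKM in the 3 Ctrl libraries, 4.31, 3.99 and 3.74 RPKM in ONC, and 3.13, 2.67 and 2.80 RPKM in TPEN. The 3 groups did not overlap, and TPEN stood nearer to ONC than to Ctrl. Its log2 fold change was 2.52 in ONC/Ctrl (limma, SE 0.18, adjusted p = 9.35e-06) and -0.47 in TPEN/ONC (limma, SE 0.18, adjusted p = 0.155). The 95% interval of the latter ran from a ratio of 0.546 to 0.953. The adjusted p of this decrease was under 0.05 in 4 alternatives, with voom on whole reads (0.00206), without Ctrl replicate 3 (0.0224), with only the 6 libraries compared (0.0275) and with a pseudocount of 1 (0.0403), but the fold change was under 1.5 in each. The span of Cx3cr1 overlaps Csrnp1, Gorasp1, Ttc21a and Wdr48, with 0 exon bases shared.

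P2ry12 is the receptor for ADP with which microglia steer their processes toward damage. It lies on chromosome 3 (59216272 to 59262871, minus strand). Its level was 0.140, 0.306 and 0.196 RPKM in Ctrl, 1.09, 1.47 and 1.57 RPKM in ONC, and 1.06, 0.813 and 0.551 RPKM in TPEN. Every ONC library was above every TPEN library, but ONC replicate 1 and TPEN replicate 1 nearly touched. The log2 fold change of P2ry12 was 2.26 in ONC/Ctrl (limma, SE 0.26, adjusted p = 0.000255) and -0.73 in TPEN/ONC (limma, SE 0.26, adjusted p = 0.137). The interval of the latter was 0.402 to 0.908 as a ratio. The decrease passed the threshold when the test was run on whole reads with voom (adjusted p = 0.0339), and in no other alternative. P2ry12 shares 9 exon bases with Med12l on the opposite strand, which stayed between 0.353 and 0.576 RPKM in the 9 libraries.

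Tmem119, a transmembrane protein used to tell microglia from other macrophages, lies on chromosome 5 (113793729 to 113800516, minus strand). It was nearly without reads in Ctrl, at 4, 2 and 4 reads or 0.0771, 0.0374 and 0.0861 RPKM. Its level was 0.902, 1.09 and 1.02 RPKM in ONC, and 0.303, 0.467 and 0.650 RPKM in TPEN, with no overlap between any of the groups. Its log2 fold change was 2.73 in ONC/Ctrl (limma, SE 0.24, adjusted p = 4.30e-05) and -0.99 in TPEN/ONC (limma, SE 0.24, adjusted p = 0.0388). Tmem119 was thus the homeostatic member whose decrease with TPEN passed the threshold, but narrowly. The decrease missed the threshold without Ctrl replicate 1, any of the 3 ONC replicates, TPEN replicate 1 or TPEN replicate 2, with limma adjusted p from 0.0564 to 0.124.

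Gpr34, a receptor for lysophosphatidylserine, lies on chromosome X (13632089 to 13640858, plus strand), within the span of Cask on the opposite strand. Its level was 0.171, 0.290 and 0.286 RPKM in Ctrl, 1.14, 1.06 and 0.812 RPKM in ONC, and 0.599, 1.21 and 1.03 RPKM in TPEN. TPEN ranged from below the lowest to above the highest ONC library. The log2 fold change was 1.67 in ONC/Ctrl (limma, SE 0.26, adjusted p = 0.00147) and -0.12 in TPEN/ONC (limma, SE 0.26, adjusted p = 0.841), and the interval of the latter, 0.617 to 1.37 as a ratio, leaves both a fall and a rise. Without TPEN replicate 1 its log2 fold change in TPEN/ONC turned to 0.15. It shares no exon bases with Cask, which was at 3.72 to 4.52 RPKM in the 9 libraries, and whether strand was used in counting is not given in the sources used here.

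Sall1, a zinc finger transcription factor that holds the identity of microglia, lies on chromosome 8 (89027235 to 89044162, minus strand). Its level was 0.119, 0.0658 and 0.0946 RPKM in Ctrl, 0.463, 0.372 and 0.480 RPKM in ONC, and 0.561, 0.393 and 0.381 RPKM in TPEN. ONC and TPEN overlapped, and both stood above Ctrl. By exact permutation over libraries, the 3 groups differed at p = 0.0321. In the fit without the filter the log2 fold change of Sall1 was 1.48 in ONC/Ctrl (limma, SE 0.18, adjusted p = 0.000347) and 0.0084 in TPEN/ONC (limma, SE 0.18, adjusted p = 0.987), with an interval of 0.755 to 1.34 as a ratio. The sign of the latter turned without ONC replicate 2 (-0.083) and without TPEN replicate 1 (-0.14).

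Among the general myeloid genes, Mpeg1 encodes perforin-2, a pore-forming protein of phagocytes, and lies on chromosome 19 (12460779 to 12465284, plus strand). Its level was 0.268, 0.220 and 0.253 RPKM in Ctrl, 4.67, 4.65 and 4.87 RPKM in ONC, and 1.45, 1.64 and 1.77 RPKM in TPEN. Of the 9 members it had the largest rise, and its groups lay far apart. The log2 fold change of Mpeg1 was 3.80 in ONC/Ctrl (limma, SE 0.11, adjusted p = 1.73e-08) and -1.49 in TPEN/ONC (limma, SE 0.11, adjusted p = 5.78e-05). Cd68, the lysosomal glycoprotein macrosialin, lies on chromosome 11 (69664213 to 69666153, minus strand). It was at 0.319, 0.413 and 0.238 RPKM in Ctrl, 3.56, 3.39 and 3.43 RPKM in ONC, and 1.07, 1.72 and 1.52 RPKM in TPEN. Its log2 fold change was 3.09 in ONC/Ctrl (limma, SE 0.19, adjusted p = 3.77e-06) and -1.24 in TPEN/ONC (limma, SE 0.19, adjusted p = 0.00498). The decreases of Mpeg1 and Cd68 passed the threshold with each library left out in turn.

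Aif1 encodes Iba1, the actin-binding protein most used to stain microglia and macrophages, and lies on chromosome 17 (35170991 to 35176068, minus strand). Its level was 0.175, 0.452 and 0.195 RPKM in Ctrl, 1.99, 2.10 and 2.02 RPKM in ONC, and 0.980, 0.588 and 0.916 RPKM in TPEN. The groups did not overlap, although Ctrl replicate 2 stood above the other Ctrl libraries. The log2 fold change of Aif1 was 2.59 in ONC/Ctrl (limma, SE 0.27, adjusted p = 0.000127) and -1.23 in TPEN/ONC (limma, SE 0.27, adjusted p = 0.0245). The decrease missed the threshold without any of the 3 ONC replicates, TPEN replicate 2 or TPEN replicate 3, with limma adjusted p from 0.0571 to 0.0805.

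Adgre1 encodes an adhesion receptor of mature macrophages that is widely stained to find them, and lies on chromosome 17 (57358686 to 57483529, plus strand). It had 4, 4 and 3 reads in the Ctrl libraries, at 0.0550, 0.0533 and 0.0460 RPKM. Its level was 0.617, 0.859 and 1.15 RPKM in ONC, and 0.432, 0.194 and 0.278 RPKM in TPEN. The ONC libraries were widely spread, yet the lowest of them stood above the highest TPEN library. By exact permutation over libraries, the 3 groups differed at p = 0.00357, which is the smallest value possible with 3 groups of 3 libraries. In the fit without the filter the log2 fold change of Adgre1 was 2.65 in ONC/Ctrl (limma, SE 0.25, adjusted p = 5.92e-05) and -1.29 in TPEN/ONC (limma, SE 0.25, adjusted p = 0.0142). The decrease missed the threshold without ONC replicate 2, ONC replicate 3 or TPEN replicate 3, with limma adjusted p from 0.0505 to 0.0525. None of Tmem119, Sall1, Aif1, Mpeg1, Cd68 and Adgre1 overlaps another listed gene.

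The order of the levels also changed between the groups. In Ctrl, Cx3cr1 was the highest member at 0.634 ± 0.188 RPKM (SD, n = 3) and did not overlap with the next gene, whereas Cd68, Aif1, Gpr34, Mpeg1 and P2ry12 overlapped with their neighbors in this order, as did Sall1, Tmem119 and Adgre1 further down. In ONC, Mpeg1 led at 4.73 ± 0.123 RPKM, followed by Cx3cr1 at 4.01 ± 0.284 RPKM, Cd68 at 3.46 ± 0.0900 RPKM and Aif1 at 2.04 ± 0.0598 RPKM, none of which overlapped with the next. P2ry12, Gpr34, Tmem119 and Adgre1 overlapped with their neighbors there, and Sall1 was lowest and apart. In TPEN, Cx3cr1 was again first, at 2.87 ± 0.239 RPKM, and apart from Mpeg1 at 1.62 ± 0.158 RPKM, and each gene from Mpeg1 down to Adgre1 overlapped with the one below it.

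To set the classes side by side, the share of the rise kept with TPEN was computed for each TPEN library as its level minus the Ctrl mean, divided by the ONC mean minus the Ctrl mean, in RPKM. A share of 100% means that TPEN equaled ONC and a share of 0% that it equaled Ctrl. The homeostatic genes kept 66.1 ± 7.07% (Cx3cr1), 51.0 ± 21.9% (P2ry12), 43.4 ± 18.5% (Tmem119), 91.9 ± 41.3% (Gpr34) and 102 ± 29.1% (Sall1) (SD over 3 TPEN libraries). The general myeloid genes kept 31.4 ± 11.9% (Aif1), 30.7 ± 3.53% (Mpeg1), 35.5 ± 10.5% (Cd68) and 30.3 ± 14.6% (Adgre1). The general myeloid genes lay within a narrow range, and the homeostatic genes were spread widely, both between genes and between libraries. With the spread of all 3 groups carried through, the standard error of the share was 5.30 percentage points for Cx3cr1 and 2.11 for Mpeg1, but 26.7 for Gpr34 and 19.5 for Sall1.

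**Figure D2:**
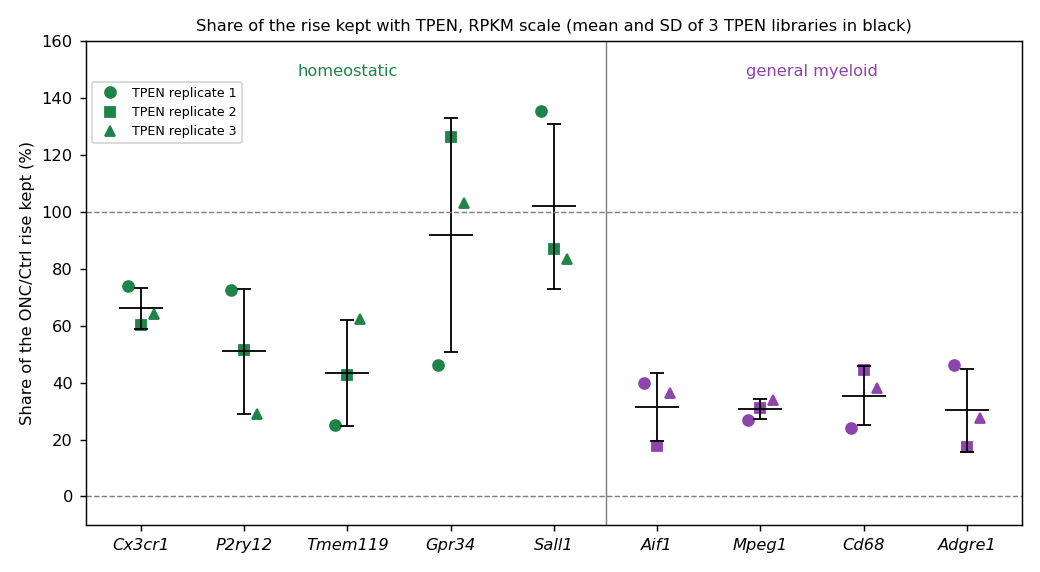
Share of the ONC/Ctrl rise kept with TPEN in percent (vertical axis) for the 5 homeostatic and 4 general myeloid genes. Symbols are the 3 TPEN libraries, black marks their mean and SD, and dashed lines the Ctrl level (0%) and the ONC level (100%). All 3 Cx3cr1 points, at 60.2% to 73.9%, are above every general myeloid point, while points of P2ry12 and Tmem119 fall among them.

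Over all members, the median share was 66.1% for the 5 homeostatic genes and 31.1% for the 4 general myeloid genes. It was 72.7%, 60.2% and 64.2% in the 3 TPEN libraries for the homeostatic class, and 33.5%, 24.4% and 35.2% for the general myeloid class. The homeostatic median was the higher in each of the 3 libraries. With the members called in the fit with the filter only, the medians were 58.6% (4 genes) and 31.4% (3 genes). Among all 622 genes upregulated in ONC/Ctrl the median share was 56.8%, with quartiles of 37.3% and 78.6%. The homeostatic median was thus close to that of all upregulated genes, and the mean share of each of the 4 general myeloid genes lay below the lower quartile. Mpeg1 and Adgre1 stayed below it with each library left out. Cd68 rose above it without TPEN replicate 1 (41.2%), and Aif1 without TPEN replicate 2 (38.3%). Adgre1, which did not pass the filter, is not among the 622 genes. On the log2(RPKM + 0.1) scale the shares were larger for 8 of the 9 genes, all but Sall1, and the classes were closer, at 63.9% to 101% for the homeostatic and 51.4% to 60.8% for the general myeloid genes. The members were chosen by name, with earlier results of these data known, and are few. The classes are therefore described here with no test between them.

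The balance of the classes within a library was taken as the mean log2(RPKM + 0.1) of the general myeloid genes minus that of the homeostatic genes. It was -0.047, 0.14 and -0.13 in the Ctrl libraries, 0.80, 0.87 and 1.0 in ONC, and 0.12, -0.14 and 0.13 in TPEN. Ctrl and TPEN overlapped, and every ONC library stood above them. The mean was -0.012 ± 0.138 in Ctrl, 0.89 ± 0.102 in ONC and 0.037 ± 0.151 in TPEN (SD, n = 3 libraries), a difference of 0.90 for ONC minus Ctrl and of -0.85 for TPEN minus ONC. With a pseudocount of 1 RPKM the latter was -0.56. The summed level of the homeostatic genes was 1.08 to 1.41 RPKM in Ctrl, 7.62 to 7.99 in ONC and 5.42 to 5.66 in TPEN. That of the general myeloid genes was 0.732 to 1.14 RPKM in Ctrl, 10.8 to 11.5 in ONC and 3.94 to 4.48 in TPEN. The general myeloid sum was thus the larger in ONC and the smaller in Ctrl and TPEN in these libraries, with the Ctrl sums of the classes overlapping.

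**Figure D3:**
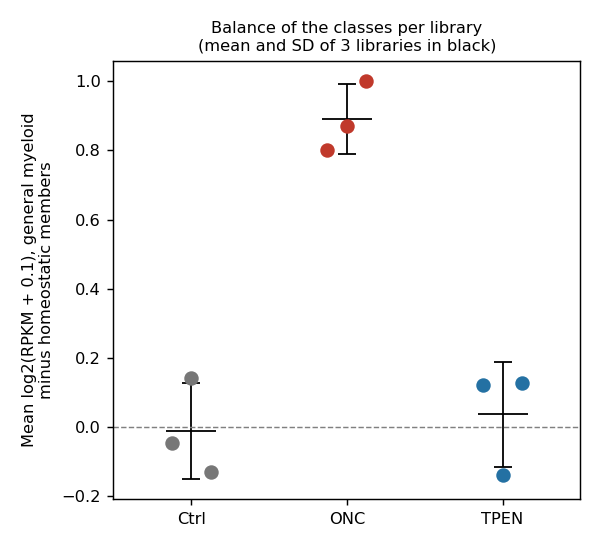
Mean log2(RPKM + 0.1) of the 4 general myeloid genes minus that of the 5 homeostatic genes (vertical axis) per library in Ctrl, ONC and TPEN. Points are libraries and black marks the mean and SD of 3. The ONC points are at 0.80 to 1.0, above the Ctrl and TPEN points, which overlap around 0.

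Other genes of the same kinds were taken from lists written from general knowledge, with earlier results of these data known, so they are no independent evidence. Many of them passed the filter only through the groups in which they were high. Each list is therefore counted over every listed gene in the fit without the filter. There 6.19% of all genes were upregulated in ONC/Ctrl, 1.85% downregulated in TPEN/ONC and 4.5% upregulated in TPEN/Ctrl. Such counts still depend on which genes were listed, and the listing may favor genes with reads in ONC. Of 16 other homeostatic microglia genes, 13 were listed, of which 12 (all but Tgfbr1) were upregulated in ONC/Ctrl, 4 were downregulated in TPEN/ONC and 10 were upregulated in TPEN/Ctrl. The median share kept by the 12 was 51.9%, from 16.3% to 84.5%. Csf1r, the receptor that microglia need to survive, rose from 0.810 to 5.85 RPKM and kept 48.4%, and it overlaps another listed gene. Sparc, a matrix protein, rose from 13.9 to 22.6 RPKM and kept 51.9%. Itgb5, an integrin subunit, rose from 3.55 to 5.57 RPKM and kept 16.3%. Both stood above Cx3cr1 (0.634 RPKM) in Ctrl, and the part of other cells in their levels was not tested.

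Of 19 other general myeloid genes, 16 were listed, and 16 were upregulated in ONC/Ctrl, 10 downregulated in TPEN/ONC and 16 upregulated in TPEN/Ctrl. Their median share kept was 34.5%, from 14.1% to 59.5%. Ctss, a lysosomal protease, was at 4.70 RPKM in Ctrl, 53.0 in ONC and 30.7 in TPEN and kept 53.9%. Lyz2, the lysozyme of myeloid cells, was at 0.534, 19.3 and 4.48 RPKM in Ctrl, ONC and TPEN, and kept 21.0%. The integrin subunits Itgam (CD11b) and Itgb2 kept 35.0% and 34.0%, and Itgb2 overlaps another listed gene. As among the members, the list median was lower for general myeloid than for homeostatic genes, but the lists overlapped in range.

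**Figure D4:**
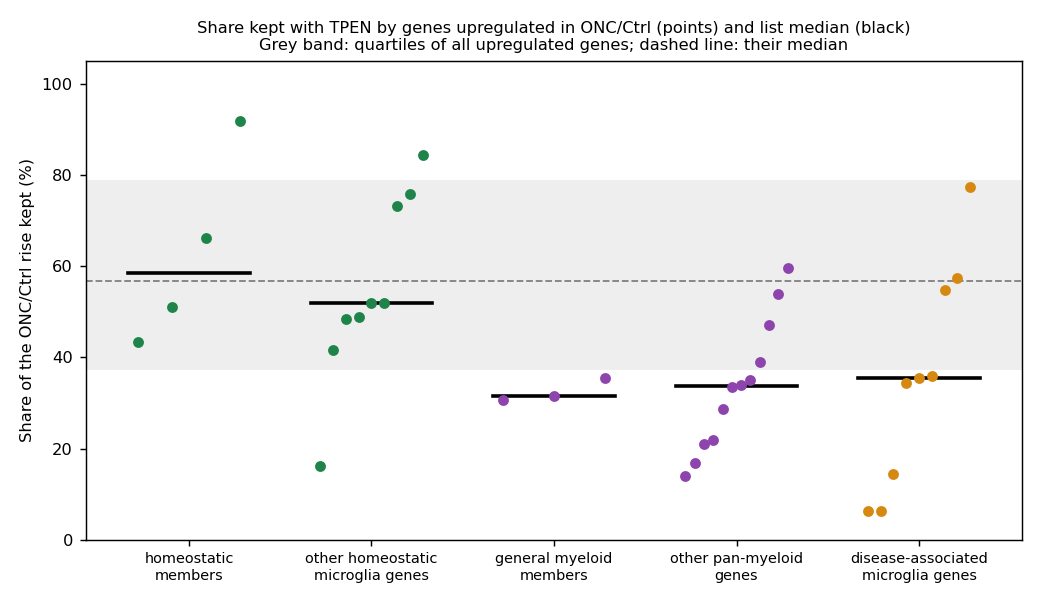
Share of the ONC/Ctrl rise kept with TPEN in percent (vertical axis) for genes that passed the filter and were upregulated in ONC/Ctrl, by list. Points are genes, black bars list medians, the grey band the quartiles (37.3% and 78.6%) and the dashed line the median (56.8%) of all 622 upregulated genes. The medians are 58.6% and 51.9% for the homeostatic lists, 31.4% and 33.7% for the general myeloid lists and 35.4% for the disease-associated list.

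Of 16 genes of disease-associated microglia, a reactive state described in neurodegeneration, 14 were listed. Of these 13 (all but Igf1, at 0.238 RPKM in Ctrl and 0.164 in ONC) were upregulated in ONC/Ctrl, 7 were downregulated in TPEN/ONC and 8 were upregulated in TPEN/Ctrl. Their median share kept was 45.4%, from 6.35% to 77.3%, and it was 35.4% over the 9 genes that passed the filter. Apoe, a lipid carrier that Müller glia also express, rose from 172 to 268 RPKM and kept 6.35%. Fabp5, a fatty acid binding protein, kept 6.37%, the secreted protein Spp1, which overlaps another listed gene, kept 34.4%, and the tetraspanin Cd63 kept 77.3%.

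Lists of other macrophages and blood cells were read beside these. Of 10 genes of border-associated macrophages, 3 were listed. Pf4, a chemokine that such macrophages and platelets express, was at 0 to 0.120 RPKM in Ctrl, 0.965 to 2.42 in ONC and 0 to 0.139 in TPEN. It kept 0.349 ± 4.47% of its rise and passed the filter only through ONC. In the fit without the filter, all 3 listed genes were upregulated in ONC/Ctrl (6.19% of all genes) and downregulated in TPEN/ONC (1.85%). Of these, 1 was upregulated in TPEN/Ctrl (4.5%). F13a1, a coagulation factor subunit, was below the filter, at 0 to 0.0114 RPKM in Ctrl, 0.887 to 1.32 in ONC and 0.0511 to 0.115 in TPEN. Stab1, a scavenger receptor also below the filter, overlaps another listed gene and was at 0.0757 to 0.0920 RPKM in Ctrl, 0.317 to 0.491 in ONC and 0.165 to 0.171 in TPEN. Of 11 genes of infiltrating monocytes, 5 were listed and 4 passed the filter, 2 of them with a Ctrl mean under it. Without the filter, 4 of the 5 (all but Itga4) were upregulated in ONC/Ctrl, 3 downregulated in TPEN/ONC and 3 upregulated in TPEN/Ctrl. Of these Fn1, fibronectin, kept 16.7%, F10, coagulation factor X, kept 1.04%, and S100a4 kept 63.2 ± 45.0% of the rise, where Fn1 and S100a4 overlap other listed genes. Itga4, the most abundant gene of this list, which also overlaps another listed gene, went the other way in TPEN/ONC, with 12.4 RPKM in Ctrl, 17.9 in ONC and 20.8 in TPEN (log2 fold change 0.21, limma adjusted p = 0.0108, under the fold of 1.5). The defining monocyte genes Ccr2 and Ly6c2 were not among the listed genes. Of 10 neutrophil genes only Csf3r was listed, at 0.180 RPKM in Ctrl, 1.04 in ONC and 0.36 in TPEN, and it kept 21.0%. None of 11 lymphocyte genes was listed. The part of these cells in the levels of Aif1, Mpeg1, Cd68 and Adgre1 was not tested.

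Among the 8 Müller glia genes, which include Apoe, 2 (Apoe and Vim) were upregulated in ONC/Ctrl and 1 (Apoe) was downregulated in TPEN/ONC, while in TPEN/Ctrl Vim was upregulated and Glul downregulated, with sums of 553 to 574 RPKM in Ctrl, 617 to 629 in ONC and 487 to 498 in TPEN. Of 7 endothelial genes 2 were listed, and neither passed the test in any comparison (sums of 10.8 to 11.6 RPKM in Ctrl and 14.2 to 15.2 in TPEN).

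The genes most like each class over the 9 libraries were sought among 12139 others with a mean of at least 1 RPKM, by Pearson correlation with the mean z-score of the class on the log2 scale. These correlations are descriptions, since the 9 points are 3 groups of libraries. The nearest to the homeostatic class included Gfap (r = 0.999), Gap43, Gm28177 and Arhgef2 (r = 0.998), which kept 59.7%, 73.3%, 73.8% and 78.4% of their rise. Gfap is the intermediate filament of astrocytes and reactive Müller glia, and Gap43 is a growth protein of axons. The 5 nearest to the general myeloid class were Arhgdia (r = 0.995), Ccl6, H2-D1, Myo5b and Fyb (r = 0.994), which kept 46.8%, 25.5%, 36.5%, 49.7% and 28.4%. Ccl6 is a chemokine, H2-D1 a class I histocompatibility gene and Fyb an adaptor of blood cells. Gfap, Gm28177, Arhgef2 and Fyb each overlap another listed gene, so their reads are uncertain.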

How the data were processed

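RNA of the sorted cells was sequenced after a stranded mRNA kit with molecular identifiers. The authors trimmed reads with Trimmomatic 0.36 (submitters' processing notes), mapped them with STAR to GRCm38 (mm10) and deposited RPKM per gene, normalized for exon length and library size. The counting program, annotation, use of strand and collapsing of identifiers are not given in the sources used here. The deposited log2 fold changes, p-values and FDR of the authors' own edgeR comparisons were not used.

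RPKM times length was a whole multiple of 1 step per library for 100% of values (tolerance 0.02 reads), which gave read numbers. The deposited exon length of each member equaled the merged length of the exon coordinates deposited with it, and no outside annotation was compared. Groups were compared with limma 3.58.1 (R 4.3.3), with a variance trend, on log2(RPKM + 0.1) of genes averaging 0.5 RPKM or more, 1 coefficient per group over 9 libraries, and Benjamini-Hochberg adjustment. Sall1 and Adgre1, under the filter, were taken from the fit without it and from exact permutation tests (SciPy 1.17.1). A repeat of the fit with voom on whole reads was an alternative, and the steps were tested on simulated data. Alternatives also covered quantile normalization, the pseudocount, the filter, the 6 libraries compared, the replicate block and leaving out each library. The genes named are the members, up to 4 called genes of highest mean RPKM per list with defining markers, and the 5 nearest genes per class. Some genes that this rule names are not reported here. F13a1, Stab1, Itga4, Igf1, Tgfbr1 and Glul were added after their values were seen. The members and lists were chosen with earlier results of these data known. Ratios between genes are per exon length, and RPKM shows levels relative to all other RNA of a library.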

Additional observations from a re-analysis of the deposited data

How the results depend on the processing

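Few reads, above all in Ctrl, and 3 libraries per group limit these results. Of 411 alternative values of the members' log2 fold changes, 382 kept their direction and side of the threshold. Many of these could not change direction. A change of filter, the replicate block, the 6 libraries compared or leaving out a library of the uncompared group leaves the fold change as it was. The 3 that turned sign were Gpr34 in TPEN/ONC without TPEN replicate 1 (0.15) and Sall1 in TPEN/ONC without ONC replicate 2 (-0.083) and without TPEN replicate 1 (-0.14). With each library left out, these fold changes ran from -0.30 to 0.15 for Gpr34 and from -0.14 to 0.091 for Sall1. Neither gene passed the threshold there in any alternative. With a pseudocount of 1 RPKM the calls of P2ry12, Tmem119, Aif1, Sall1 and Adgre1 in TPEN/Ctrl, of Sall1 in ONC/Ctrl and of Tmem119 and Adgre1 in TPEN/ONC were lost. Their fold changes were then under 1.5, and for Adgre1 in TPEN/Ctrl the adjusted p was 0.0798.

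The count of members upregulated in ONC/Ctrl was 7 with the filter, 9 without it and 4 at a mean of at least 1 RPKM, which fewer members reach, and it was 7 with each library left out. In TPEN/Ctrl it was 7, and 4 both with a pseudocount of 1 and at a mean of at least 1 RPKM. The count downregulated in TPEN/ONC was 4, and 2 to 4 with each library left out, among which Mpeg1 and Cd68 always remained. It was 2 (Mpeg1 and Cd68) with the replicate block. Deviations of same-numbered libraries correlated at -0.062 to 0.027 over 9 pairs. With 3 libraries per group this shows no pairing by replicate number but cannot exclude one. Whether same-numbered libraries were handled together is not given in the sources used here.

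The median share kept by the called homeostatic members, 58.6%, was 63.1% as a mean, 74.5% on the log2 scale and 57.3% to 64.6% with each library left out. It was 66.1% without the filter, which takes every member, and at a mean of at least 1 RPKM. Both of these are the share of Cx3cr1 alone. Cx3cr1 is the middle of the 5 homeostatic genes and the only one with a mean of at least 1 RPKM. The median share kept by the called general myeloid members, 31.4%, was 60.0% on the log2 scale and 29.0% to 34.7% with each library left out. With the filter, the counts of the other lists fell to 9, 12 and 9 upregulated in ONC/Ctrl for the homeostatic, general myeloid and disease-associated genes (3, 8 and 6 downregulated in TPEN/ONC), since fewer genes were tested. Counting these lists without the filter was chosen after seeing the data. The balance of the classes, TPEN minus ONC, was -0.85, and -0.56 with a pseudocount of 1 and -0.90 to -0.77 with each library left out. The balance without the filter has no separate value because it uses every member.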
